A study of Mus musculus with 12 samples.

Results

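The Slc25 family encodes the mitochondrial carriers, and its transcripts were followed in mouse cumulus cells, which enclose the oocyte in the follicle and derive from granulosa cells. Members were all rows of the deposited gene table whose symbol begins with Slc25a and a number. This gave 47 of 23997 rows, and no measured value was used to choose them. Levels are in FPKM, fragments scaled to transcript length and to the mapped fragments of the library, so that levels of different genes can be compared. A member was tested where it reached 1 FPKM in at least 3 of the 12 libraries, which held for 38 members, as for 11196 rows of the whole table. The libraries came from female C57BL/6J mice, ClpP-/- (KO) or wild type (WT), at 3 or 6 months of age, with 3 mice in each of the 4 groups. Follicle growth was stimulated in all mice with 5 IU of PMSG (pregnant mare serum gonadotropin), and cells were taken after 44 h according to the treatment protocol or 48 h according to the series' design text. Each library was amplified from 100 cells of a single mouse. The labels also carry a passage entry, P1, and do not say whether the isolated cells were cultured. ClpP is a peptidase that degrades proteins in the mitochondrial matrix together with the unfoldase ClpX, and the study's title places the comparison in reproductive aging. The labels do not say which part of the gene was removed in the KO, and p-values measure the spread between these mice and libraries.

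Mitochondrial carriers are small proteins of 3 tandem repeats that form a pore-like barrel in the inner mitochondrial membrane. They alternate between a state open to the cytosol and a state open to the matrix, and so move metabolites, nucleotides, amino acids, cofactors and metal ions across a membrane that is otherwise tight. In the cumulus and granulosa cells of the follicle, mitochondria supply ATP, citrate and reducing power for steroid synthesis and for metabolites passed to the oocyte.

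Clpp itself averaged 121 ± 29.9 FPKM (SD, n = 3) in 3-month WT and 3.27 ± 2.95 in 3-month KO, and 122 ± 7.59 in 6-month WT and 2.91 ± 2.98 in 6-month KO. Every KO library lay below every WT library. A level of 1 FPKM was reached by 9335 to 10861 genes, and the spacing of the lowest values put library depth between 0.642 and 1.0 of the deepest library. The table gives no counts, so no counting interval can be set on a value, and values under about 1 FPKM rest on few reads. The granulosa marker Inha lay between 2419 and 6334 FPKM in all 12 libraries. Library 3 of both KO groups stood apart, with 10 theca and stromal markers that summed to 1331 FPKM at 3 months and 1687 at 6 months, against 0.443 to 164 in the other 10 libraries. All 10 were above 0 in 6 libraries, these 2 included. Blood and leukocyte markers summed to 749 to 1350 FPKM in library 3 of all 4 groups and to 5.81 to 65.9 in the other 8. The markers behind these sums differed. Hbb-b1, a hemoglobin gene, was the largest in library 3 of 3-month WT, 3-month KO and 6-month WT, at 448, 379 and 745 FPKM. In 6-month KO library 3 Lyz2 was the largest at 397, with C1qb at 246 and Hbb-b1 at 14.0. Ptprc and Emr1 were listed at 0 in 3-month WT library 3. Oocyte markers summed to 50.8 and 209 in library 3 of the 3-month and 6-month KO and to 12.1 or less elsewhere. Endothelial markers summed to between 4.18 and 23.95. The sum of granulosa and cumulus markers was lowest in 3-month KO library 3, at 2976, of which Inha held 2590, against sums of 4034 to 8359 in the others. In such pooled cells a smaller number of cells of a type and less transcript per cell cannot be told apart.

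Carrier transcripts differed widely in level, from 899 FPKM for Slc25a5 down to 0.688 for Slc25a29 on average among the tested members. Of the 47 members, 4 averaged at least 100 FPKM over the 12 libraries, 12 averaged 10 to 100, and 22 of the tested members averaged less than 10. The summed family level was 2572 ± 381 FPKM (SD, n = 3) in 3-month WT, 2539 ± 403 in 3-month KO, 2045 ± 192 in 6-month WT and 2409 ± 411 in 6-month KO. These sums overlapped between every pair of groups compared. The FPKM of all genes summed to 627194 to 1366500 per library. As a share of that sum the family averaged 0.303% in 3-month WT, 0.322% in 3-month KO, 0.293% in 6-month WT and 0.292% in 6-month KO. Slc25a5, Slc25a3 and Slc25a4 held 69.8% to 80.6% of the family's FPKM sum in each library. At least 1 FPKM was reached by 30 to 37 members per library, and 24 members reached it in all 12. The spread of log2(FPKM + 1) over the 12 libraries had a median SD of 0.45 over the 38 tested members, beside 0.52 over all tested genes.

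**Figure D1:**
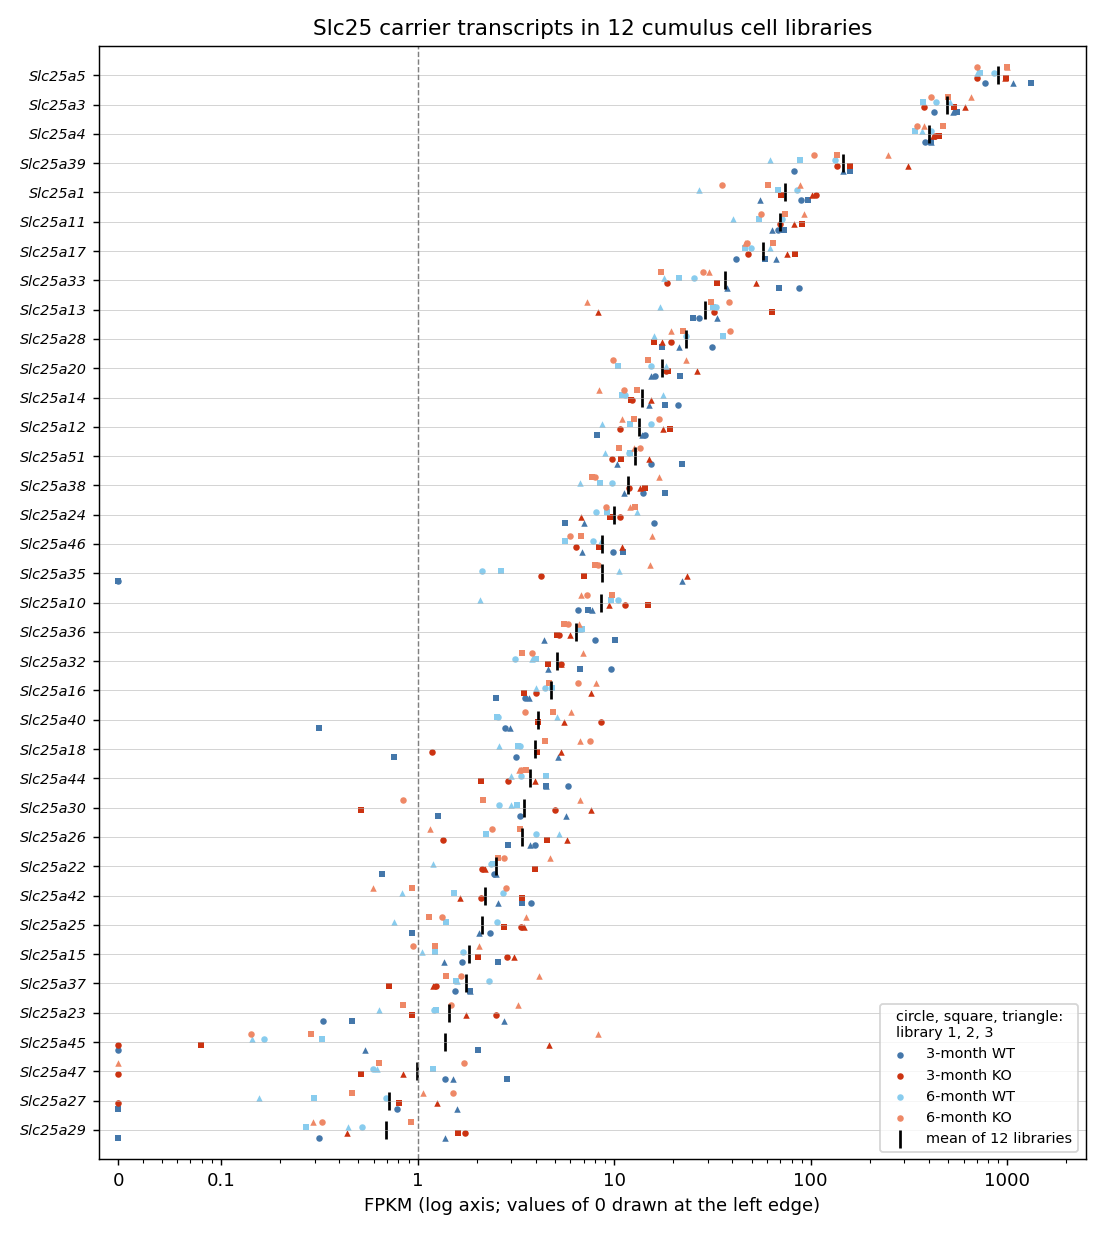
FPKM on a log axis (horizontal) of 37 of the 38 tested Slc25 members (vertical, ordered by their mean), with 1 point per library, colours for the 4 groups, shapes for library number, a black tick for the mean of 12 libraries and a dashed line at 1 FPKM. Slc25a5, Slc25a3 and Slc25a4 stand at 338 FPKM or above in every library, while the lowest members, such as Slc25a27 and Slc25a29, lie on both sides of the 1 FPKM line.

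The remaining 9 members did not pass the filter. Slc25a54 was listed at 0 in all 12 libraries. Slc25a41, an ATP-magnesium and phosphate carrier, was above 0 only in 6-month KO library 1, at 0.115 FPKM. Slc25a21, which carries oxoadipate and oxoglutarate, was above 0 in 3 libraries and reached 0.244. Slc25a48 and Slc25a2, the latter an ornithine carrier, were each above 0 in 4 libraries and reached 0.272 and 0.717. The testis and germ-cell adenine nucleotide carrier Slc25a31 was above 0 in 5 libraries. Its highest value, 0.571 FPKM, was in 3-month KO library 3, and it stood at 0.0387 in 6-month KO library 3, the library with the highest oocyte marker sum. Of that sum H1foo held 124 FPKM. Gdf9, Zp1, Zp2 and Nlrp5 were lower there than in 3-month KO library 3, and the other listed oocyte markers were higher. Slc25a54, Slc25a41, Slc25a21, Slc25a48, Slc25a2, Slc25a31, Slc25a34 and Slc25a53 never reached 1 FPKM, which makes 8 silent members. Just outside the filter, by their third-highest library, lay Slc25a43 at 0.915, Slc25a53 at 0.554 and Slc25a34 at 0.356 FPKM. Just inside lay Slc25a27 at 1.26, Slc25a29 at 1.38 and Slc25a47 at 1.52, so the line falls among members of nearly the same level.

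Slc25a43 stood at 1.31, 0 and 0.915 FPKM in 3-month WT, at 0, 0.584 and 0.687 in 3-month KO, at 0.633, 0.364 and 0.225 in 6-month WT and at 0.711, 1.29 and 0 in 6-month KO. Slc25a53 stood at 0.88, 0.318 and 0.47, at 0.638, 0.258 and 0.554, at 0.107, 0.335 and 0.104 and at 0.535, 0.464 and 0 in the same groups. Slc25a34 was highest in 3-month KO library 2, at 0.518, and listed at 0 in 3 libraries. Inside the filter, Slc25a27, a relative of the uncoupling proteins, stood at 0.789, 0 and 1.59 FPKM in 3-month WT, at 0, 0.802 and 1.26 in 3-month KO, at 0.688, 0.298 and 0.156 in 6-month WT and at 1.52, 0.466 and 1.07 in 6-month KO. Slc25a29, a carrier of basic amino acids, stood at 0.314, 0 and 1.38, at 1.74, 1.61 and 0.437, at 0.52, 0.272 and 0.441 and at 0.327, 0.927 and 0.294. All groups overlapped for these 5 members.

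The adenine nucleotide carriers exchange cytosolic ADP for matrix ATP. Slc25a5, the isoform of dividing tissues (chromosome X, 36795651 to 36798807, plus strand, GRCm38), was the most abundant member in every library. Its levels in libraries 1, 2 and 3 were 768, 1319 and 1066 FPKM in 3-month WT. They were 703, 986 and 977 in 3-month KO, 858, 725 and 699.6 in 6-month WT and 703, 992 and 993 in 6-month KO. Slc25a4, the isoform of heart and muscle (chromosome 8, 46206797 to 46211284, minus strand), stood at 381, 409 and 411 in 3-month WT, at 428, 452 and 419 in 3-month KO, at 408, 338 and 368 in 6-month WT and at 349, 471 and 377 in 6-month KO. Slc25a4 was thus nearly level across the series, with 1.39-fold between its highest and lowest library. Its SD of 0.14 log2 units over the 12 libraries was undercut by 1 of the 1169 tested genes that average 100 FPKM or more, whose median SD was 0.40. The ratio of Slc25a5 to Slc25a4 ran from 1.64 to 3.23 and averaged 2.61 ± 0.605 in 3-month WT (SD, n = 3), 2.05 ± 0.364 in 3-month KO, 2.05 ± 0.132 in 6-month WT and 2.25 ± 0.335 in 6-month KO. The groups overlapped in this ratio. Slc25a5 has an annotated processed copy, Slc25a5-ps on chromosome 14, and the handling of reads from such copies was not given in the sources used here.

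The start regions of the most abundant and the near-silent adenine nucleotide carrier are shown because the same transport function was present at 899 FPKM on average from the first gene and at 0.0759 from the second. Both are from RefSeq on GRCm38.p6, 5′ to 3′ on the plus strand, end before the annotated gene start, and have each CG dinucleotide in capitals. The first lies at chrX:36795347-36795596 and the second at chr3:40708621-40708854.
Slc25a5: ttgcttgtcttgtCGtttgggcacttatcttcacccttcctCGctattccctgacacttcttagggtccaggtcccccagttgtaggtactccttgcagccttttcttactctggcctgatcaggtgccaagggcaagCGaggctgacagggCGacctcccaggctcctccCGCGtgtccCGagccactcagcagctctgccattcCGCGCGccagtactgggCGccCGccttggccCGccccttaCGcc
Slc25a31: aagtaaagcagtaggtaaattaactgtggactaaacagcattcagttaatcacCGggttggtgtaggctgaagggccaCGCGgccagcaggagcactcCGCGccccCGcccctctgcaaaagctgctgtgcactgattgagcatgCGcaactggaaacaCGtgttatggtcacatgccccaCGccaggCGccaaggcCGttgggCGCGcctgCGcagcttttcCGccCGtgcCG
The Slc25a5 run of 250 bases holds 14 CG dinucleotides and the Slc25a31 run of 234 bases holds 17. In windows of 250 bases before the RefSeq start, where CG reads the same on both strands, Slc25a5 held more than 70.4% of 27025 promoters and Slc25a31, with 18, more than 78.4%. Over the family, 29 tested members had a window in the RefSeq table, with a median of 14 CG, and 20 of them (69.0%) held at least 10. Of the 7 members below the filter that had a window, 4 (57.1%) held at least 10, and their median was also 10. The share was 76.1% for all tested genes with a window, 26.0% for genes of the table below the filter and 38.2% for all promoters.

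Slc25a3, the phosphate carrier that also delivers copper to the matrix (chromosome 10, 91116574 to 91124059, minus strand), was the second most abundant member. It stood at 424, 554 and 531 FPKM in 3-month WT, at 379, 533 and 608 in 3-month KO, at 434, 371 and 512 in 6-month WT and at 411, 502 and 651 in 6-month KO. It was below Slc25a5 in all 12 libraries and above Slc25a4 in 11 of 12. All 4 groups overlapped for Slc25a3.

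**Figure D2:**
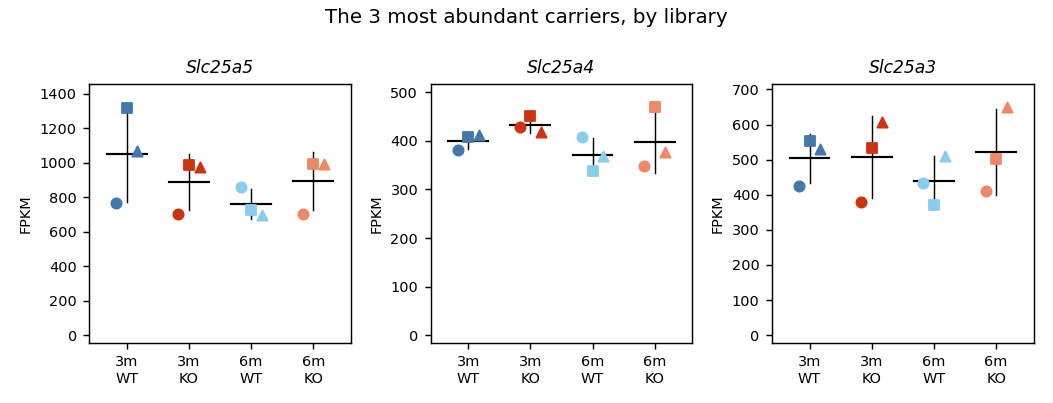
FPKM (vertical axis from 0) of Slc25a5, Slc25a4 and Slc25a3 for the 3 libraries of each group (horizontal axis), with circle, square and triangle for libraries 1, 2 and 3, a bar for the mean and a whisker for the SD, n = 3. Slc25a4 stays between 338 and 471 FPKM, and Slc25a5 ranges from 699.6 to 1319.

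The calcium-regulated ATP-magnesium and phosphate carriers, which set the size of the matrix adenine nucleotide pool, were expressed at low levels. Slc25a24 averaged 10.01 FPKM over the 12 libraries, Slc25a25 2.14 and Slc25a23 1.45. Among relatives of the uncoupling proteins Slc25a14 averaged 13.9 FPKM, Slc25a30 3.49 and Slc25a27 0.72. Of the orphan members Slc25a35 averaged 8.65 and Slc25a45 1.39.

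Carriers of citrate, dicarboxylates and oxoacids connect the tricarboxylic acid cycle with the cytosol. Slc25a1, the citrate carrier that provides cytosolic acetyl-CoA for lipid synthesis (chromosome 16, 17925223 to 17928219, minus strand), stood at 89.5, 96.4 and 55.0 FPKM in 3-month WT, at 106, 70.3 and 101 in 3-month KO, at 84.8, 68.4 and 27.1 in 6-month WT and at 35.4, 61.0 and 88.3 in 6-month KO. Slc25a11, the oxoglutarate carrier of the malate-aspartate shuttle (chromosome 11, 70644196 to 70647479, minus strand), stood at 68.4, 72.8 and 63.6 in 3-month WT, at 70.1, 90.7 and 82.5 in 3-month KO, at 71.6, 54.6 and 40.1 in 6-month WT and at 55.8, 73.7 and 92.9 in 6-month KO. Slc25a1 exceeded Slc25a11 in 6 of 12 libraries, so the 2 are not ordered. The dicarboxylate carrier Slc25a10 averaged 8.60 FPKM. The acylcarnitine carrier Slc25a20, which brings fatty acyl groups to oxidation, averaged 17.4.

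Among the amino acid carriers Slc25a13, the aspartate-glutamate carrier citrin of the malate-aspartate shuttle (chromosome 6, 6041218 to 6217173, minus strand), was the most abundant. It stood at 26.9, 25.2 and 33.3 FPKM in 3-month WT, at 32.1, 63.6 and 8.24 in 3-month KO, at 32.9, 31.8 and 17.1 in 6-month WT and at 38.3, 31.0 and 7.31 in 6-month KO. Its 3 lowest values were those of library 3 of 3-month KO, 6-month WT and 6-month KO. Its paralog Slc25a12, or aralar, averaged 13.4 and the glycine carrier Slc25a38, which feeds heme synthesis, 11.7. The glutamate carriers Slc25a18 and Slc25a22 averaged 3.96 and 2.50, the branched-chain amino acid carrier Slc25a44 3.74, the ornithine carrier Slc25a15 1.82 and the basic amino acid carrier Slc25a29 0.688.

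All 10 carriers of cofactors and pyrimidine nucleotides in the table passed the filter. Slc25a39, required for mitochondrial glutathione import (chromosome 11, 102402985 to 102407946, minus strand), stood at 81.8, 158 and 147 FPKM in 3-month WT, at 135, 159 and 311 in 3-month KO, at 132, 88.7 and 62.0 in 6-month WT and at 104, 136 and 247 in 6-month KO. It was 12.1 or more times its paralog Slc25a40, which averaged 4.08, in every library. Slc25a33, a pyrimidine nucleotide carrier, averaged 36.6 over the 12 libraries and its relative Slc25a36 6.43. The NAD carrier Slc25a51 averaged 12.8. Other cofactor carriers were lower, with the folate and FAD carrier Slc25a32 at 5.12, Slc25a16 at 4.80, the S-adenosylmethionine carrier Slc25a26 at 3.39 and the coenzyme A carrier Slc25a42 at 2.20.

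Of the mitoferrins, which import iron for heme and iron-sulfur clusters, the widely expressed Slc25a28 (chromosome 19, 43663801 to 43674881, minus strand) stood at 31.5, 17.5 and 21.3 FPKM in 3-month WT, at 19.5, 16.01 and 17.5 in 3-month KO, at 23.2, 35.8 and 15.96 in 6-month WT and at 38.8, 22.5 and 19.6 in 6-month KO. The erythroid form Slc25a37 averaged 1.76, and Slc25a28 was 4.73 to 23.3 times as high in each library. Members placed elsewhere include Slc25a17 of the peroxisome (chromosome 15, 81318911 to 81360812, minus strand), which stood at 41.9, 58.6 and 66.3 in 3-month WT, at 48.0, 83.2 and 75.5 in 3-month KO, at 49.9, 46.1 and 61.8 in 6-month WT and at 47.2, 64.5 and 46.2 in 6-month KO. Slc25a46, a protein of the outer membrane with a part in mitochondrial shape, averaged 8.66.

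At 3 months, over all libraries, no carrier transcript passed the test for a difference between KO and WT. The counts called were 0 of 38 members and 1 of 11196 genes (0.00893%) by limma on log2(FPKM + 1) at an adjusted p under 0.05, a test of 4 group means over the 12 libraries. At an unadjusted p under 0.05 limma had 3 members (7.89%, background 6.8%), 1 with a higher mean in KO (background 3.35%) and 2 with a lower mean (background 3.45%). KO and WT values did not overlap for 7 members (18.4%, background 10.2%), 4 with higher values in KO (background 5.02%) and 3 with lower values (background 5.22%). The median difference over the 38 members was 0.10 log2 units, beside 0.01 over all genes, and 21 members lay above 0 (55.3% beside 51.2%). Without 3-month KO library 3 the median was -0.01. With library 3 of all 4 groups left out, which leaves 2 mice per group and was chosen after the values were seen, 19 of 38 members lay above 0 (50% beside 51.4%). In that fit limma called 1 of 38 members, Slc25a35, beside 92 of 11192 genes (0.822%), and 12 members had an unadjusted p under 0.05 (31.6% beside 18.9% of genes). By role, over all libraries, means were higher in KO for 3 of 3 carriers of citrate, dicarboxylates and oxoacids, 3 of 3 ATP-magnesium and phosphate carriers, 5 of 8 amino acid carriers, 4 of 10 carriers of cofactors and pyrimidine nucleotides and 0 of 2 mitoferrins, on the log2 scale.

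The member with the smallest p at 3 months was Slc25a40, a relative of the glutathione carrier Slc25a39 (chromosome 5, 8422850 to 8454797, plus strand). It stood at 2.79, 0.314 and 2.96 FPKM in WT and at 8.58, 4.10 and 5.56 in KO. Every KO library was above every WT library, and WT library 2 stood far under the rest (log2 difference 1.34, SE 0.46, limma unadjusted p = 0.0127, adjusted p = 0.664). Slc25a47, whose substrate is not settled, stood at 1.39, 2.84 and 1.52 FPKM in WT and at 0, 0.516 and 0.843 in KO. Its groups did not overlap either (log2 difference -1.02, SE 0.41, limma adjusted p = 0.714). At 6 months it stood at 0.591, 1.21 and 0.622 in WT and at 1.73, 0.639 and 0 in KO, and these overlapped. Slc25a33, the pyrimidine nucleotide carrier (chromosome 4, 149744036 to 149774277, minus strand), stood at 87.5, 68.7 and 37.7 in WT and at 18.7, 33.3 and 52.5 in KO. KO library 3 was above WT library 3, so these groups overlapped (log2 difference -0.91, SE 0.41, limma adjusted p = 0.73). Slc25a33 shares exon sequence with an antisense transcript, Gm13068, and the counting is not said to use strand.

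Slc25a44, the branched-chain amino acid carrier, stood at 5.86, 4.51 and 4.52 FPKM in 3-month WT and at 2.89, 2.11 and 3.95 in KO, without overlap (log2 difference -0.60, SE 0.29, limma adjusted p = 0.747). Its 6-month values were 3.37, 4.50 and 3.00 in WT and 3.37, 3.55 and 3.30 in KO. Slc25a35, whose substrate is not settled, was listed at 0 in WT libraries 1 and 2 and stood at 22.2 in WT library 3, against 4.23, 7.07 and 23.5 in KO (log2 difference 1.83, SE 1.06, limma adjusted p = 0.774). WT library 3 was close to the highest KO library, so the groups overlapped. Without library 3 of all 4 groups WT was listed at 0 in both remaining libraries, and the log2 difference was 2.699 (SE 0.34, limma adjusted p = 0.0254), a fitted value and no bound. At 6 months Slc25a35 stood at 2.13, 2.66 and 10.6 in WT and at 8.25, 7.95 and 15.2 in KO. Exons of Slc25a35 overlap those of Rangrf on the opposite strand, which stood at 43.6, 55.1 and 101 FPKM in 3-month WT and at 83.4, 87.3 and 89.9 in KO, so reads of the 2 genes may not be separable. The other members without overlap were Slc25a25 and Slc25a10, higher in KO, Slc25a37, lower in KO, and Slc25a4, whose KO values of 419 to 452 all lay above its WT values of 381 to 411. For Slc25a4 the log2 difference was 0.11 (SE 0.19, limma adjusted p = 0.919).

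At 6 months no member passed either. The counts called were 0 of 38 members and 3 of 11196 genes (0.0268%) by limma at an adjusted p under 0.05. At an unadjusted p under 0.05 there were 0 members beside 1.22% of all genes, 0.768% with a higher and 0.456% with a lower mean in KO. KO and WT did not overlap for 3 members (7.89%, background 6.8%). These were 2 members with higher values in KO (background 3.79%), the glutamate carriers Slc25a18 and Slc25a22, and 1 with lower values (background 3.01%), Slc25a36. The median difference was 0.20 log2 units beside 0.01 over all genes, with 29 of 38 members above 0 (76.3% beside 51.5%). With library 3 of all 4 groups left out it was 0.03, beside 0.02 over all genes, and 20 of 38 members lay above 0 (52.6% beside 53.6%). By role, over all libraries, means on the log2 scale were higher in KO for 3 of 3 carriers of citrate, dicarboxylates and oxoacids, 3 of 3 ATP-magnesium and phosphate carriers, 6 of 8 amino acid carriers, 7 of 10 carriers of cofactors and pyrimidine nucleotides and 2 of 2 mitoferrins. The part of other cell types in these counts was not tested.

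Slc25a39 had the smallest p at 6 months, with the values given above (log2 difference 0.75, SE 0.43, limma adjusted p = 1.00). Its KO library 3, at 247 FPKM, was the highest and its WT library 3, at 62.0, the lowest, and KO library 1 lay under WT library 1. Without library 3 of all 4 groups its difference was 0.13. Slc25a18 stood at 3.33, 3.24 and 2.61 FPKM in WT and at 7.51, 4.46 and 6.71 in KO (log2 difference 0.81, SE 0.50, limma adjusted p = 1.00). Exons of Slc25a18 overlap those of Atp6v1e1 on the opposite strand, whose level was 81.4 to 204 FPKM in 6-month WT and 88.7 to 297 in 6-month KO. Slc25a22 stood at 2.37, 2.42 and 1.19 in WT and at 2.76, 2.57 and 4.75 in KO (log2 difference 0.54, SE 0.39), and its difference was 0.11 without library 3 of all 4 groups. Slc25a11 had a log2 difference of 0.42 (SE 0.27), and of 0.04 without those libraries. Slc25a16, a carrier tied to coenzyme A, stood at 4.48, 4.85 and 4.01 in WT and at 6.57, 4.68 and 8.13 in KO (log2 difference 0.43, SE 0.33), with 0.21 without those libraries. At 3 months Slc25a22 had stood at 2.46, 0.656 and 2.52 in WT and at 2.14, 3.98 and 2.21 in KO, and Slc25a16 at 3.54, 2.51 and 3.69 and at 4.01, 3.47 and 7.63. The adjusted p at 6 months of Slc25a22, Slc25a11 and Slc25a16 was also 1.00 by limma.

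**Figure D3:**
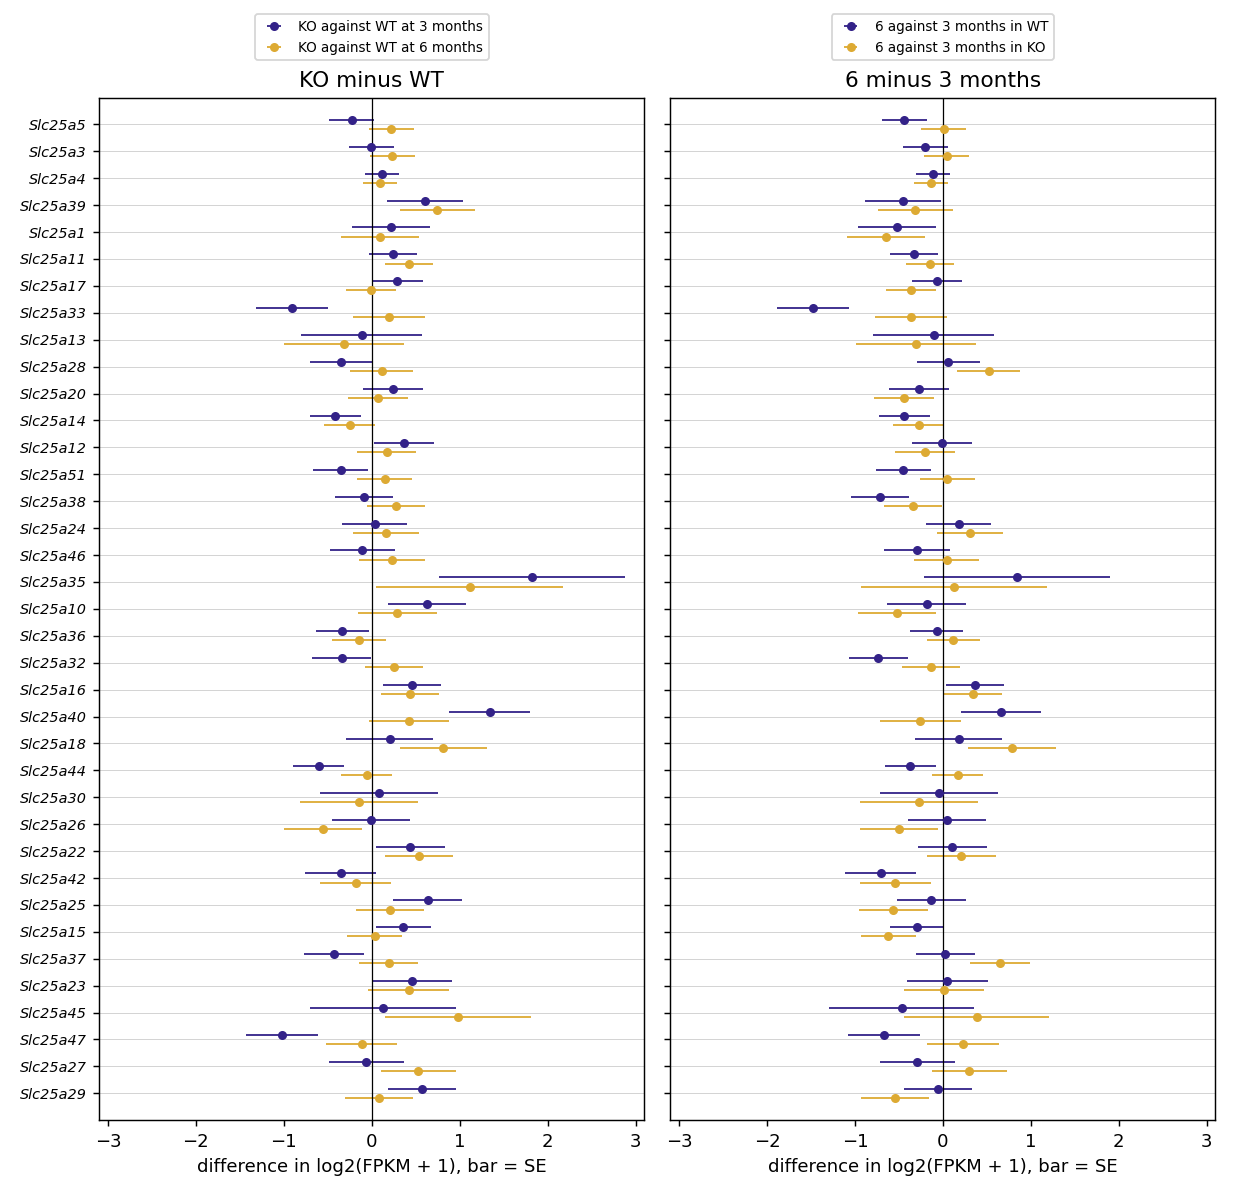
Difference in log2(FPKM + 1) with its SE (horizontal axis) of 37 of the 38 tested members (vertical axis, ordered by mean level), KO minus WT at each age on the left and 6 minus 3 months in each genotype on the right. Most intervals of 1 SE cross or lie near 0, and the widest is that of Slc25a35 at 1.83 with an SE of 1.06.

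Averaged over both ages, 0 of 38 members and 2 of 11196 genes (0.0179%) were called by limma at an adjusted p under 0.05, and 2 members had an unadjusted p under 0.05 (5.26% beside 5.96%). They were Slc25a40 (log2 difference 0.88, SE 0.32, limma adjusted p = 0.783) and Slc25a39 (0.68, SE 0.30, adjusted p = 0.783), the glutathione carrier and its paralog. Next were Slc25a35 at 1.47 (SE 0.75), Slc25a47 at -0.57 (SE 0.29) and Slc25a16 at 0.44 (SE 0.23). At 6 months Slc25a40 stood at 2.58, 2.55 and 5.10 FPKM in WT and at 3.54, 4.89 and 6.02 in KO, where WT library 3 was above 2 of the KO libraries. With library 3 of all 4 groups left out the averaged difference was 1.09 for Slc25a40 and 0.25 for Slc25a39. Of the 38 members 24 lay above 0 on average (63.2%, background 51.1%), with a median of 0.13 log2 units. In the fit without library 3 of all 4 groups 19 of 38 did (50%, background 52.6%), and the median was 0.00107. Over all libraries, 19 lay above 0 at both single ages (50.0% beside 31.8% of all genes). Of the others 7 lay below 0 at both, and 12 had opposite signs. At the single ages 55.3% and 76.3% of members lay above 0, so the share of all genes above 0 at both is not a matched baseline. The single ages share no library, but the deviations of KO library 3 at the 2 ages correlated over all tested genes (r = 0.653). A like sign at both ages is thus no independent check, and this count was not made without library 3.

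The interaction, which asks whether the KO-WT difference itself differed between ages, was called for 0 of 38 members and 1 of 11196 genes (0.00893%) by limma at an adjusted p under 0.05, with 0 members at an unadjusted p under 0.05 beside 2% of genes. The smallest p was that of Slc25a33, whose KO-WT difference was -0.91 at 3 months and 0.20 at 6 months (interaction 1.11, SE 0.58, adjusted p = 1.00). Next were Slc25a47 at 0.90, Slc25a40 at -0.92, Slc25a44 at 0.54 and Slc25a37 at 0.62 log2 units, all with an adjusted p of 1.00 by limma.

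With age in WT mice no member passed, and the smallest p values were those of Slc25a33, a pyrimidine nucleotide carrier, and Slc25a32, the folate and FAD carrier. Limma called 0 of 38 members and 1 of 11196 genes (0.00893%) at an adjusted p under 0.05, and 2 members at an unadjusted p under 0.05 (5.26%, background 7.44%), both with a lower mean at 6 months (background 4.47%) and 0 with a higher mean (background 2.97%). Values at the 2 ages did not overlap for 6 members (15.8%, background 15.7%), 5 of them lower at 6 months (background 7.81%) and 1 higher (background 7.94%). The median difference was -0.16 log2 units beside 0.03 over all genes, and 11 of 38 members lay above 0 (28.9% beside 51.9%). In the fit without library 3 of all 4 groups it was -0.11 beside 0.04, and 16 of 38 members lay above 0 (42.1% beside 52.5%). By role, over all libraries, 0 of 3 carriers of citrate, dicarboxylates and oxoacids and 2 of 8 amino acid carriers lay above 0. So did 4 of 10 carriers of cofactors and pyrimidine nucleotides, 2 of 3 ATP-magnesium and phosphate carriers and 2 of 2 mitoferrins.

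Slc25a33 stood at 87.5, 68.7 and 37.7 FPKM in 3-month WT and at 25.4, 21.4 and 17.9 in 6-month WT, so every 6-month library was below every 3-month library (log2 difference -1.47, SE 0.41, limma unadjusted p = 0.0037, adjusted p = 0.664). In 6-month KO it stood at 28.4, 17.3 and 30.4, which overlaps its 3-month KO values. Slc25a32, the folate and FAD carrier, stood at 9.66, 6.69 and 4.62 at 3 months and at 3.13, 4.03 and 3.82 at 6 months, again without overlap (log2 difference -0.73, SE 0.33, adjusted p = 0.664), and in KO at 5.34, 4.59 and 5.37 and at 3.84, 3.42 and 6.98. Slc25a38, the glycine carrier, stood at 14.1, 18.1 and 11.2 and at 9.76, 8.51 and 6.72 (log2 difference -0.72, SE 0.33, adjusted p = 0.664), and in KO at 11.9, 14.4 and 13.5 and at 8.04, 7.71 and 16.95. Slc25a42, the coenzyme A carrier, stood at 3.79, 3.39 and 2.57 at 3 months and at 2.71, 1.53 and 0.836 at 6 months, which overlap (log2 difference -0.71, SE 0.40), and in KO at 2.09, 3.42 and 1.65 and at 2.83, 0.934 and 0.594. Slc25a5 had a log2 difference of -0.44 (SE 0.26, limma adjusted p = 0.717), its 6-month libraries at 699.6 to 858 FPKM overlapping the 3-month range of 768 to 1319. Slc25a47 and Slc25a44 were the other members lower at 6 months without overlap, and Slc25a16 was the one higher. For Slc25a44 the gap was minimal, with the highest 6-month WT value at 4.503 FPKM and the lowest 3-month WT value at 4.509.

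**Figure D4:**
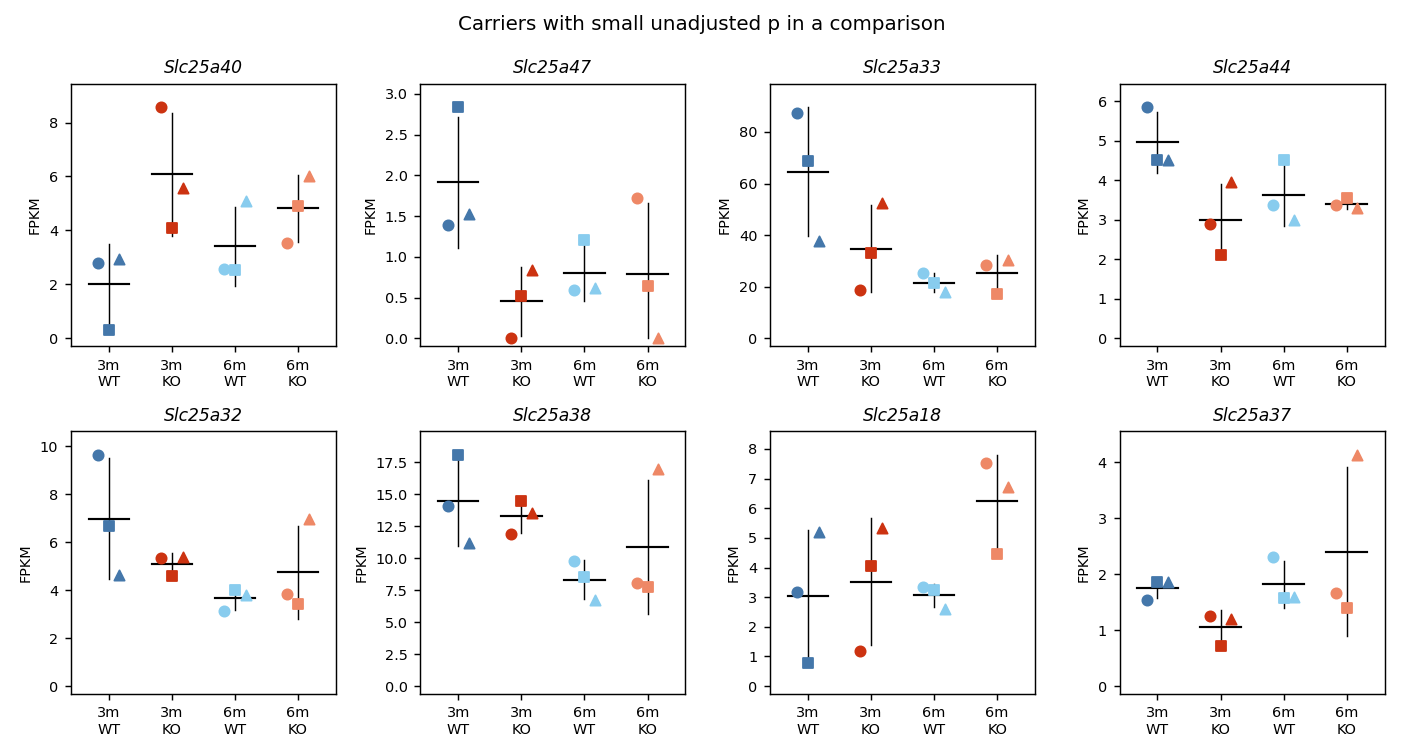
FPKM (vertical axis from 0) by group (horizontal axis) of 8 members among those with the smallest unadjusted p in a comparison, with circle, square and triangle for libraries 1, 2 and 3, a bar for the mean and a whisker for the SD, n = 3, ended at 0 where it would go below. Slc25a33 lies at 37.7 to 87.5 in 3-month WT and at 17.9 to 25.4 in 6-month WT, and Slc25a40 at 0.314 to 2.96 in 3-month WT and at 4.10 to 8.58 in 3-month KO.

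With age in KO mice limma called 0 of 38 members and 2 of 11196 genes (0.0179%) at an adjusted p under 0.05, and 0 members at an unadjusted p under 0.05 beside 6.48% of genes, 3.76% higher and 2.72% lower at 6 months. Values did not overlap for 2 members (5.26%, background 12.8%), both higher at 6 months (background 6.82%) and both mitoferrins, with 0 lower (background 5.98%). Slc25a37 stood at 1.25, 0.712 and 1.203 FPKM in 3-month KO and at 1.67, 1.396 and 4.13 in 6-month KO (log2 difference 0.65, SE 0.34, limma adjusted p = 0.745). The 6-month value of 4.13 was in library 3, and the corresponding values in WT were 1.54, 1.86 and 1.86 at 3 months and 2.30, 1.57 and 1.59 at 6 months. Slc25a28 had a log2 difference of 0.52 (SE 0.36, adjusted p = 0.767). Its highest 3-month KO value was 19.548 FPKM and its lowest 6-month KO value 19.553, so its groups came close to touching. Slc25a15, the ornithine carrier, stood at 2.86, 2.032 and 3.11 at 3 months and at 0.947, 1.22 and 2.06 at 6 months, which overlap (log2 difference -0.62, SE 0.31, adjusted p = 0.745), and in WT at 1.69, 2.58 and 1.36 and at 1.70, 1.23 and 1.05. Slc25a18 stood at 1.18, 4.06 and 5.34 in 3-month KO and at 3.18, 0.764 and 5.18 in 3-month WT, and its KO difference with age was 0.79 (SE 0.50). For Slc25a1 it was -0.65 (SE 0.44). The median over the members was -0.14 log2 units beside 0.01 over all genes, and 17 of 38 lay above 0 (44.7% beside 50.8%). Without 3-month KO library 3 that median was 0.0431, and without 6-month KO library 3 it was -0.25. In the fit without library 3 of all 4 groups it was -0.11 beside 0.02 over all genes, and 16 of 38 members lay above 0 (42.1% beside 51.1%). Over all libraries, 0 of 3 carriers of citrate, dicarboxylates and oxoacids and 3 of 8 amino acid carriers lay above 0. So did 3 of 10 carriers of cofactors and pyrimidine nucleotides, 2 of 3 ATP-magnesium and phosphate carriers and 2 of 2 mitoferrins. The 2 age comparisons share no library with each other but share libraries with the genotype comparisons.

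Library 3 of both KO groups, the 2 libraries with the highest theca and stromal marker sums (1331 and 1687 FPKM), was set beside the other KO libraries, a split chosen after the values were seen. In both, 13 of 38 members lay outside the range of the other 4 (34.2%), no larger a share than that of all genes (background 38.2%). The FPKM of all genes summed to 1010580 and 1366500 in these 2 libraries, against 627194 to 733452 in the other 4 KO libraries. The family held 0.284% and 0.202% of that sum, against 0.312% to 0.362%, so it was a smaller part of the whole there. Of the 38 members 12 had higher FPKM in both of these libraries than in the other 4 KO libraries (31.6%, background 21.3%) and 1 had lower FPKM (2.63%, background 16.9%). The lower one was Slc25a13, at 8.24 and 7.31 FPKM against 31.0 to 63.6. Among the higher ones, Slc25a39 stood at 311 and 247 against 104 to 159, Slc25a20 at 26.3 and 23.3 against 9.84 to 18.9, and Slc25a35 at 23.5 and 15.2 against 4.23 to 8.25. Slc25a45 stood at 4.65 and 8.26 FPKM against 0 to 0.287 in the other 4 KO libraries. It was 2.031 in 3-month WT library 2, where theca and stromal markers summed to 5.56, and 0.537 or less in the other 5 WT libraries. Others were Slc25a3, Slc25a16, Slc25a25, Slc25a30, Slc25a32, Slc25a36 and Slc25a46. Some of these passed by little. In 3-month KO library 3 Slc25a32 stood at 5.37 against at most 5.34 in the other 4, Slc25a36 at 5.97 against 5.84 and Slc25a25 at 3.49 against 3.38. The part of other cell types in these values was not tested.

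**Figure D5:**
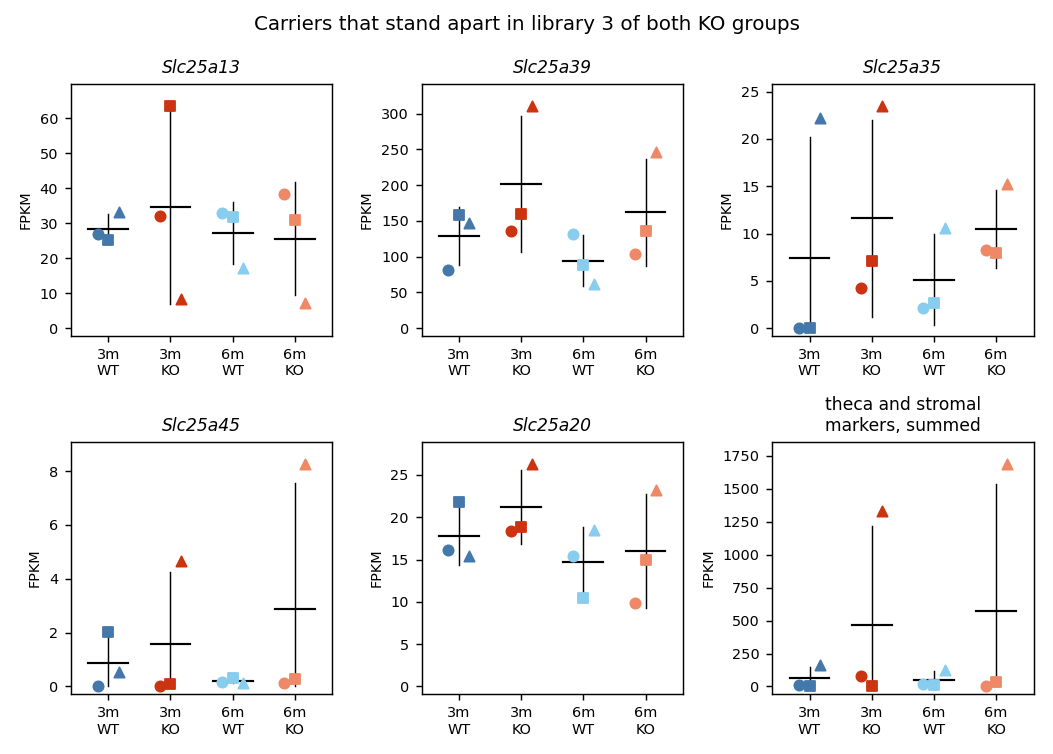
FPKM (vertical axis from 0) by group (horizontal axis) of 5 members and of 10 theca and stromal markers summed, with circle, square and triangle for libraries 1, 2 and 3, a bar for the mean and a whisker for the SD, n = 3, ended at 0 where it would go below. The triangles of the KO groups are low for Slc25a13 (8.24 and 7.31) and high for Slc25a39 (311 and 247) and for the marker sum (1331 and 1687).

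Other mitochondrial transporters and the enzymes that work beside the carriers were compared as lists of genes. Of 32 symbols for transporters outside the Slc25a rule, among them uncoupling proteins, pyruvate carriers, sideroflexins, porins, the calcium uniporter and ABC transporters, 28 were in the table and 23 were tested. None was called by limma in any of the 6 comparisons. At 3 months 11 of 23 lay above 0 (median -0.01 log2 units, beside 0.01 and 51.2% above 0 over all genes), with an unadjusted p under 0.05 for 1 with a higher mean in KO, Abcb6 (log2 difference 1.11, SE 0.41, adjusted p = 0.678), and 1 with a lower mean, Sfxn4 (-1.08, SE 0.47, adjusted p = 0.73), beside backgrounds of 3.35% and 3.45%. Next was Abcb8 (0.79, SE 0.42). Abcb6 stood at 3.43, 1.26 and 2.36 FPKM in 3-month WT and at 7.86, 6.07 and 4.41 in KO, without overlap. At 6 months its difference was -0.45 (SE 0.41) and its interaction with age -1.57 (SE 0.57, limma unadjusted p = 0.0185, adjusted p = 1.00), and Abcb8 had an interaction of -1.33 (SE 0.59, limma unadjusted p = 0.0444, adjusted p = 1.00). At 6 months 11 of 23 lay above 0 (median -0.02, beside 51.5% and 0.01 over all genes). None had an unadjusted p under 0.05 (background 1.22%), with Abcb8 at -0.54 (SE 0.42) and Ucp2 at 0.43 (SE 0.34).

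Of 26 partner enzymes of the malate-aspartate, glycerol phosphate, carnitine and citrate shuttles and of linked steps, 22 were tested and none was called in any comparison by limma. At 3 months 15 of 22 lay above 0 (median 0.44 log2 units, beside 51.2% and 0.01 over all genes) and 2 had an unadjusted p under 0.05, both with a higher mean in KO (background 3.35%). They were Cpt2, the inner-membrane enzyme that receives acylcarnitine from Slc25a20 (log2 difference 0.99, SE 0.27, adjusted p = 0.664), and Mat2a, which makes the S-adenosylmethionine carried by Slc25a26 (0.76, SE 0.24, adjusted p = 0.664). Next was Gpd2 of the glycerol phosphate shuttle (0.81, SE 0.48). Without library 3 of all 4 groups 17 of 22 lay above 0 (beside 51.4% of all genes) with a median of 0.23. In that fit 4 of 22 had an unadjusted p under 0.05 by limma, beside 18.9% of all genes. Cpt2 stood at 17.1, 20.3 and 13.8 FPKM in 3-month WT and at 29.9, 34.3 and 39.7 in KO, without overlap, and at 15.2, 11.7 and 10.1 in 6-month WT and at 14.1, 17.01 and 21.5 in 6-month KO. Slc25a20 itself averaged 17.8 ± 3.47 FPKM in 3-month WT and 21.2 ± 4.41 in 3-month KO (SD, n = 3), and Slc25a26 3.52 ± 0.579 and 3.90 ± 2.28. In 3-month KO library 3, the one high in theca markers, Me1 stood at 539.9 FPKM, Idh1 at 657 and Alas1 at 378, against at most 104, 285 and 40.9 in the other 3-month KO libraries, 3 genes chosen after their values were seen. At 6 months 15 of 22 enzymes lay above 0 (median 0.23, beside 51.5% and 0.01 over all genes) and none had an unadjusted p under 0.05 (background 1.22%). The smallest p values were those of Mat2a at 0.50 (SE 0.24), Cpt2 at 0.47 (SE 0.27) and Arg1 at -1.05 (SE 0.68). Without library 3 of all 4 groups 9 of 22 lay above 0 with a median of -0.07, beside 53.6% and 0.02 over all genes.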

How the data were processed

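Transcripts of 12 libraries were measured, 3 per group, by Smart-Seq2 amplification, Nextera XT libraries and paired-end sequencing, per the labels' protocols. The deposited table holds FPKM that the authors made from reads handled with TopHat2 2.0.10 and Bowtie2 2.1.0 on GRCm38/mm10 and with Cufflinks 1.2.1, beside SAMtools 0.1.18, cutadapt and FastQC, per the submitters' processing notes. The annotation behind it was not given in the sources used here. None of the 66 pairs of libraries held identical values.

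Rows with at least 1 FPKM in at least 3 libraries (11196 of 23997) were fitted as log2(FPKM + 1), a pseudocount of 1, with limma 3.58.1 in R 4.3.3, as 4 group means over 12 libraries with 8 residual and 3.9 prior degrees of freedom and eBayes with trend. P-values are 2-sided, adjusted by Benjamini and Hochberg over all 11196 genes, with a threshold of 0.05. Differences understate the change of low genes. Medians and counts over members are descriptions without a test. The members, lists and the library split were chosen with earlier results of these data known.

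All members entered the fits and counts, and 1 tested member and 1 listed transporter are not reported here by name. Values in every library are given for the 10 most abundant, for the 5 with the smallest unadjusted p in each comparison, and for those nearest the filter, 3 on each side by third-highest FPKM (Slc25a34 by its highest value). Of the 2 lists, the 3 genes with the smallest unadjusted p at each age are otherwise named. Coordinates and exon overlaps are from GENCODE M21 on GRCm38, where all 47 members were matched, 14 with an exon overlapping another gene. Promoter windows are from RefSeq, for 36 members, at the first start listed for a gene.

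The labels number libraries 1 to 3 in each group without saying that a number marks a shared litter or day. As a check, each library's deviation from its group mean was correlated with that of the library of the same number. Over all tested genes r was 0.158, 0.373 and 0.465 between 6-month KO and WT, and 0.114, 0.394 and 0.653 between the KO ages. In the other comparisons at least 1 was under 0.1, but library 3 with library 3 had 0.205 between 3-month KO and WT and 0.278 between the WT ages. Library 3 of 1 group with library 1 or 2 of the other had r between -0.596 and -0.0226 in every comparison. Libraries 1 and 2 also correlated across numbers, library 1 of 1 group with library 2 of the other at 0.475 and 0.2 at 6 months. Between the KO ages these were 0.514 and 0.364. Library 3 thus deviated in a like direction in all 4 groups. All reported fits have no block, and the replicate block was run as an alternative in every comparison. Member tables used pandas 2.3.3 and numpy 2.4.6, and figures matplotlib 3.10.9, under Python 3.11.15.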

Additional observations from a re-analysis of the deposited data

How the results depend on the processing

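The alternatives were a pseudocount of 0.1, no filter, a filter at 5 FPKM, rescaling to a common FPKM sum without small RNA, upper quartile scaling, only the 6 libraries compared, the replicate block, and each library left out. Leaving out library 3 of 3-month KO, 6-month WT and 6-month KO, and leaving out library 3 of all 4 groups, were added after results were seen. The number of members called was 0 in all but 1 of 100 combinations of comparison and alternative. The exception was KO against WT at 3 months without library 3 of all 4 groups, where 1 member, Slc25a35, was called (2.699, limma adjusted p = 0.0254, against 0.118 to 1.00 in its other alternatives). With the replicate block it was also 0 in each of the 6 comparisons, so the block changed no call. All 30 differences with the smallest p kept their sign in all 490 alternative values. They were picked by p from libraries that the alternatives use again, so a kept sign is no independent check. Sizes moved more, as for Slc25a39 at 6 months, at 0.75 in the main fit and from 0.13 to 1.02 in the alternatives. The filter at 5 FPKM leaves out members under it, so the lowest ones have no value there. The number of members measured was 38, and 40 at 0.5 FPKM, 26 at 5 FPKM, 39 after rescaling and 37 to 38 without any 1 library.

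The family median was 0.10 for KO against WT at 3 months and ran from -0.01 to 0.22 without any 1 library, and was -0.00046 without library 3 of all 4 groups. At 6 months it was 0.20, and ran from 0.08 to 0.33. For 6 against 3 months in KO it was -0.14 and ran from -0.25 to 0.0431 without any 1 library, the positive value being that without 3-month KO library 3. Without library 3 of all 4 groups it was -0.11. For WT it ran from -0.29 to -0.11. The interaction median of 0.14 was -0.03 after rescaling, -0.03 without 6-month WT library 3 and -0.03 without 6-month KO library 3. Rescaling moved the median of all genes at 3 months from 0.01 to 0.13, with the family at 0.16. Upper quartile scaling moved it for age in WT from 0.03 to 0.16, with the family at -0.03. Likewise it moved it for age in KO from 0.01 to 0.12, and rescaling moved it from 0.01 to -0.14 for the interaction. Without counts the depth behind low members is unknown.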
